A study of Mus musculus with 24 samples.

Results

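The 77 genes described here carry the symbols of mitochondrial ribosomal proteins, and all but Mrps36 encode proteins of the mitochondrial ribosome (mitoribosome). They are the rows of the count table whose symbol begins with Mrpl or Mrps, followed by a number and at most 1 further letter, and they make up 77 of the 24421 genes of the table. All 77 passed the filter on low counts, among 12742 tested genes. RNA-seq was run on bone marrow mononuclear cells of Shp2 E76K mice, in which a substitution activates SHP2, the phosphatase made from Ptpn11, and which serve as a model of juvenile myelomonocytic leukemia. The groups were a BTK inhibitor (ACP196, which blocks Bruton's tyrosine kinase), a PI3K inhibitor (ACP319, an inhibitor of the p110δ catalytic subunit of phosphoinositide 3-kinase), both inhibitors in combination, and vehicle, each given for 3 weeks. The mutation was present in every group, vehicle included, so none of the comparisons sets mutant against wild-type marrow. The sources used here do not give age, dose or the way the allele is driven. Each group had 3 specimens, numbered 4 to 6 (BTK inhibitor), 7 to 9 (PI3K inhibitor), 10 to 12 (combination) and 1 to 3 (vehicle). The labels do not say that each specimen was a separate mouse, and the p-values then measure the spread between specimens, part of which may be technical.

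The mitoribosome sits in the mitochondrial matrix and translates the few messages of the mitochondrial genome, which encode core subunits of the respiratory chain and of ATP synthase. Its proteins are all encoded in the nucleus, made in the cytosol and imported, while its ribosomal RNAs are transcribed inside the organelle. In dividing hematopoietic precursors mitochondrial translation is needed to build respiratory capacity, and some leukemic cells are known to be sensitive to its inhibition. Of the 77 genes, 50 encode proteins of the large subunit and 26 of the small subunit. The other is Mrps36, whose product was named as a ribosomal protein but is an adaptor of the oxoglutarate dehydrogenase complex. By protein family, 46 have a counterpart in bacterial ribosomes and 30 are specific to mitochondria. A further mitoribosomal gene, Mrpl58, stands in the table under its older symbol Ict1 and is not among the 77.

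The genes lie on 17 chromosomes, with at most 10 on any of them. RefSeq promoter windows of assembly GRCm38.p6, from 250 bases before to 50 bases after the transcription start, were found for 68 of the 77 genes (74 windows). The 4 motifs searched, on both strands, may overlap one another. Shares are given over genes, since some genes have several windows that overlap, and a gene counts once if any of its windows holds the motif. The NRF1 motif (GCGCA, any base, GCGC), bound by nuclear respiratory factor 1, was present for 19.1% of the 68 genes, against 11.4% of tested genes with a window and 5.2% of all genes with one. The ETS motif (CCGGAAG) was present for 25 of the 68 genes (36.8%), against 1942 of 9691 tested genes and 9.9% of all genes. The YY1 motif (AANATGGCG) was present for 14.7%, against 6.0% and 2.8%, and the E-box (CACGTG) for 7.4%, against 11.6% and 8.1%. A match describes letters in a window and does not show binding. The windows below belong to 3 of the 4 genes with the largest fold changes among those that rose with the PI3K inhibitor (Mrpl52, Mrps18c and Mrpl53) and to Mrpl17, the gene with the largest difference with the offset on annotated gene length described below, though not with that on coding length. Each is printed 5′ to 3′ on the strand of the gene, with motif matches in capitals. Mrpl52 (chr14:54426659-54426958, plus strand) and Mrpl53 (chr6:83108858-83109157, plus strand) each hold 2 ETS matches. Mrps18c (chr5:100798509-100798808, plus strand) holds an E-box and an ETS match 1 base apart. Mrpl17 (chr7:105811038-105811337, minus strand) holds an ETS and an NRF1 match.
Mrpl52: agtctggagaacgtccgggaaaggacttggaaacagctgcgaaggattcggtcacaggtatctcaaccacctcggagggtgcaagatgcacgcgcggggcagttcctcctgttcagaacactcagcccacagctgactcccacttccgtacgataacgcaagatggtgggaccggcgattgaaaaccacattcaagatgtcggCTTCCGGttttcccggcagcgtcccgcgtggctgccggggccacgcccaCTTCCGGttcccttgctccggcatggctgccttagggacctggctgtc
Mrpl53: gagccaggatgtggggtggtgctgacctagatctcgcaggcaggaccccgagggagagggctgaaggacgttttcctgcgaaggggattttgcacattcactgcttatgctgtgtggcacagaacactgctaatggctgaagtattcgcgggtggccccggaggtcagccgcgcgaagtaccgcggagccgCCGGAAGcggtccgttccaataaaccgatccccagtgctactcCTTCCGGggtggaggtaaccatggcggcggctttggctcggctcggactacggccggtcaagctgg
Mrps18c: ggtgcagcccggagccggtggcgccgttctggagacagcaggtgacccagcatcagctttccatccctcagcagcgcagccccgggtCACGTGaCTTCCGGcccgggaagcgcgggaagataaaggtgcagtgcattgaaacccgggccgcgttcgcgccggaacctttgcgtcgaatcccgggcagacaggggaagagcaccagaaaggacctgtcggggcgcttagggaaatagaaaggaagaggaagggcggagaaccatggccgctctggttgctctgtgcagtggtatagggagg
Mrpl17: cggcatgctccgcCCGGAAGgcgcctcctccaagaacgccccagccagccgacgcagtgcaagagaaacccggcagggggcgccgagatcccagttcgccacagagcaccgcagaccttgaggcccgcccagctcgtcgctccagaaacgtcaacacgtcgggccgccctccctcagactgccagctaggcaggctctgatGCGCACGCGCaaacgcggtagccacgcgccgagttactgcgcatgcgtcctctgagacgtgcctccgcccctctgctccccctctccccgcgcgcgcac

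Total counts were 8993950 to 22154833 per specimen, and the 77 genes took 39533 to 121580 of them. BTK inhibitor replicate 5 stood apart: it had the lowest total, and 15.4% of its counts were on Rn45s, the ribosomal RNA precursor, against 0.203% to 0.773% elsewhere. Replicate 6 of the same group carries another date in its title (day 30, against day 24 for the rest), and the labels do not say what was done on it. Y-linked transcripts were above 10 CPM (counts scaled to library size) in 1 specimen of each treated group and in 2 vehicle specimens. Neutrophil markers, such as S100a8 and Ngp, summed to 57540 to 215200 CPM in these mononuclear cells, while the monocyte list summed to 1074 to 2115 CPM, and Hba-a1 and Hbb-bt were at 0 in every specimen. In addition, libraries differed in how expression followed gene length. The slope of log2 CPM, relative to each gene's mean, on log2 gene length was -0.28, -0.35 and 0.18 per doubling of length in BTK inhibitor specimens, -0.10, -0.37 and -0.38 in PI3K inhibitor specimens, 0.09, 0.25 and 0.29 in combination specimens, and 0.15, 0.40 and 0.12 in vehicle specimens. All 3 PI3K inhibitor slopes were below all vehicle and combination slopes. Short genes were thus relatively high with the PI3K inhibitor. The mitoribosomal protein genes are short, with a length in the table of 407 to 6712 bases and a median of 1053, against 2835 for all tested genes. The comparisons below are therefore set beside the 4790 other tested genes with a length between the 10th and 90th percentile of the 77 (610 to 2426.2 bases), called genes of like length, and repeated with an offset that removes the length trend of each library.

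As a share of all counts, the 77 genes made up 0.434%, 0.440% and 0.353% in BTK inhibitor specimens. The share was 0.421%, 0.484% and 0.678% in PI3K inhibitor specimens, 0.392%, 0.313% and 0.341% in combination specimens, and 0.303%, 0.223% and 0.350% in vehicle specimens. All 3 PI3K inhibitor shares and all 3 BTK inhibitor shares were above all 3 vehicle shares, though BTK inhibitor replicate 6 and vehicle replicate 3 were nearly level, while combination shares overlapped those of vehicle. Scaled to library composition, their summed level was 5350 ± 2489 CPM with the BTK inhibitor, 5836 ± 1891 CPM with the PI3K inhibitor, 2920 ± 459 CPM with the combination and 2645 ± 570 CPM with vehicle (SD, n = 3 each). In bulk marrow, more cells with high mitoribosomal expression and more RNA per cell cannot be told apart.

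**Figure D1:**
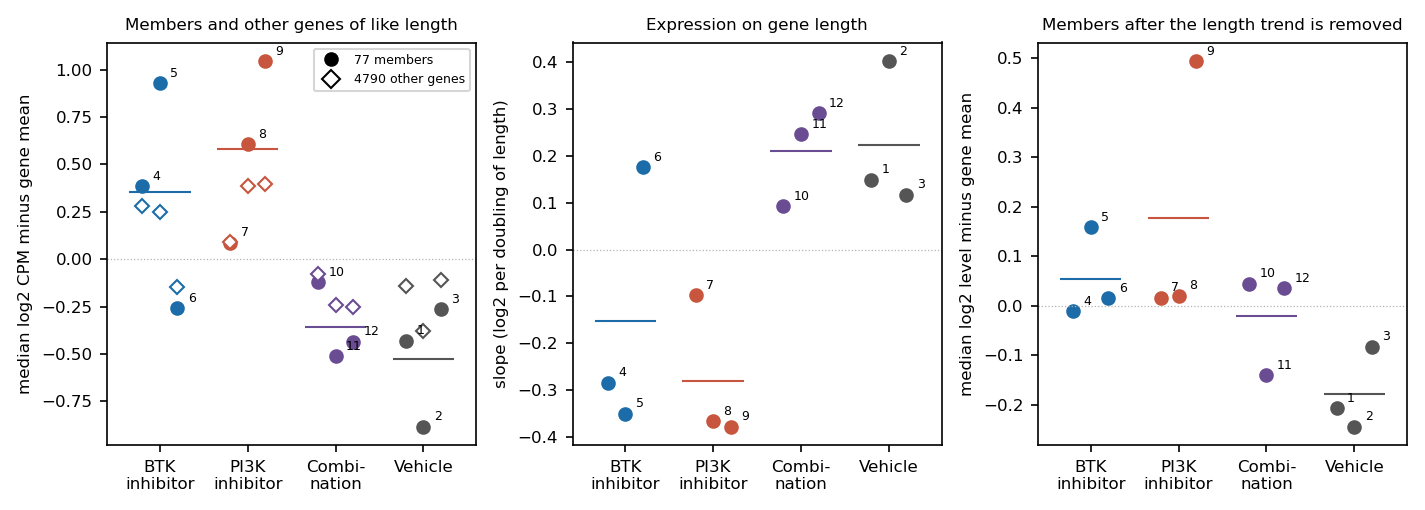
Left, the median log2 CPM of the 77 genes (filled circles) and of the 4790 other genes of like length (open diamonds), each relative to the gene's mean over 12 specimens, for each numbered specimen. Middle, the slope of expression on gene length; right, the median of the 77 genes after the length trend of each library is removed; horizontal lines are group means. PI3K inhibitor specimens lie at 0.09, 0.61 and 1.05 in the left panel and vehicle specimens at -0.43, -0.88 and -0.26, while in the right panel PI3K inhibitor replicate 9, at 0.49, stands above the other 11.

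The specimens varied widely within groups. The median gene of the set, relative to its mean over all 12 specimens, was at 0.39, 0.93 and -0.26 on the log2 scale in BTK inhibitor specimens, so replicate 6 lay among the vehicle and combination values. It was at 0.09, 0.61 and 1.05 in PI3K inhibitor specimens, at -0.12, -0.51 and -0.44 in combination specimens, and at -0.43, -0.88 and -0.26 in vehicle specimens. Genes of like length had the same order between groups with smaller values, at 0.29 ± 0.17 with the PI3K inhibitor and -0.21 ± 0.15 with vehicle (SD, n = 3 each). With the length trend removed, the median gene was at 0.02, 0.02 and 0.49 in PI3K inhibitor specimens, against -0.21, -0.24 and -0.08 in vehicle specimens. These groups still did not overlap, but 2 of the 3 PI3K inhibitor specimens then lay level with BTK inhibitor and combination specimens. The SD of the 77 genes around their mean in a specimen was 0.11 to 0.37 in 11 specimens. It was 0.96 in BTK inhibitor replicate 5, where single genes ranged far above and below the others.

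**Figure D2:**
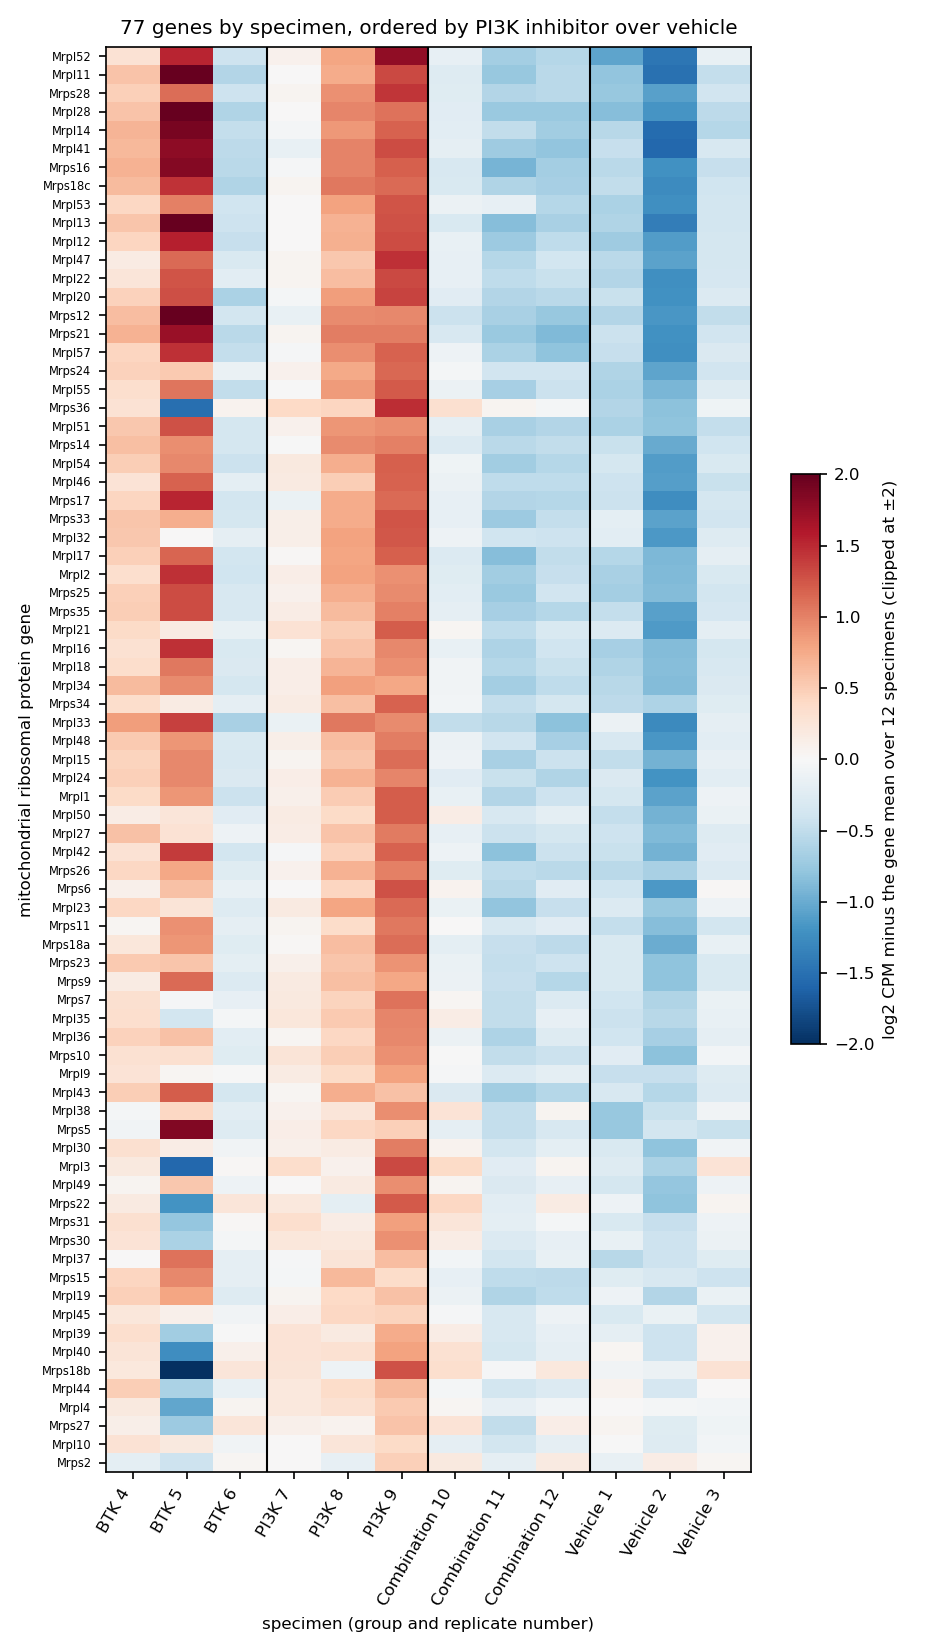
Log2 CPM of each of the 77 genes (rows, ordered by the difference between PI3K inhibitor and vehicle) in the 12 specimens (columns), relative to the gene's mean over the specimens and clipped at ±2. PI3K inhibitor replicate 9 is above the gene mean for 77 of 77 genes and vehicle replicate 2 for 1 of 77, while BTK inhibitor replicate 5 holds both the reddest and the bluest cells.

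Levels per kilobase spanned a wide range. Averaged over all 12 specimens, Mrpl33 (a small protein of the large subunit) had 419 CPM per kilobase. It was followed by the small-subunit gene Mrps21 at 219.6, Mrpl20 of the large subunit at 169, Mrpl52 at 165 and Mrps18c at 158 CPM per kilobase. All 5 have an annotated length under 1000 bases. The lowest were Mrps25, at 5.75, Mrpl17, at 8.46, and Mrpl35, at 8.55 CPM per kilobase, with annotated lengths of 6065, 6712 and 3695 bases. Their longest coding sequences are 513, 528 and 564 bases, near the median of 576 for the 77 genes, so most of their annotated length is outside the coding sequence. Exon bases shared with a neighbouring gene were found for 10 of the 77 genes: Mrpl19, Mrpl24, Mrpl41, Mrpl48, Mrpl49, Mrpl53, Mrps23, Mrps25, Mrps27 and Mrps6. For these, the shared bases may raise or lower the count, most of all for Mrps25, which shares 3536 bases with Nr2c2 on the other strand. Mrpl19 shares 1145 with Gcfc2, and Mrpl41 shares 1002 with Dph7.

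With the PI3K inhibitor, 28 of the 77 genes rose against vehicle and 0 fell. Among all 12742 tested genes, 4.84% were called higher and 5.82% lower in this comparison by the quasi-likelihood test of edgeR (Benjamini-Hochberg adjustment). Of genes of like length, 9.37% were called higher. All 77 had a positive log2 difference, with a median of 1.14, against -0.01 for all tested genes, 0.52 for genes of like length and 0.76 for the 2005 genes in the narrower window from the 25th to the 75th length percentile. The narrower window is given for this median only. All other shares and medians of genes of like length are those of the wider window, which holds genes less close in length to the 77. In 71 of the 77 genes all 3 PI3K inhibitor specimens were above all 3 vehicle specimens, as in 24.9% of all tested genes and 45.6% of genes of like length. In all, 65 were higher at an unadjusted p under 0.05, or 84.4%, against 18.1% of all tested genes and 34.5% of genes of like length. The groups overlapped for Mrpl3, Mrpl33, Mrps18b, Mrps2, Mrps22 and Mrps6. The count depended on the specimens in the fit. It was 0 of 77 when any 1 vehicle specimen, any 1 combination specimen or PI3K inhibitor replicate 8 or 9 was left out, with 0 of all tested genes called higher in those fits. Without BTK inhibitor replicate 5 it was 66, with 17.1% of all tested genes and 32.8% of genes of like length called higher. Without BTK inhibitor replicate 6 it was 61 (13.3% and 26.1%), without BTK inhibitor replicate 4 it was 22 (4.15% and 8.27%), and without PI3K inhibitor replicate 7 it was 51 (8.08% and 15.9%). DESeq2 called 59, against 13.3% of the genes it tested and 25.9% of those of like length, and limma voom 66, against 19.1% and 35%. With a term for Y-linked transcripts edgeR called 0 of the 77 and 0 of all tested genes higher, while the median stayed between 0.87 and 1.36 with any 1 specimen left out.

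Mrpl52, which encodes a mitochondria-specific protein of the large subunit, had the largest fold change among the 28. It stood at 57.7, 93.7 and 185 CPM in PI3K inhibitor specimens, against 25.98, 19.9 and 48.9 CPM in vehicle specimens, with no overlap. The log2 difference was 1.83 ± 0.52 (SE; adjusted p = 0.0454, edgeR). Mrps28, a small-subunit protein, was at 31.9, 57.8 and 82.3 CPM with the PI3K inhibitor, against 18.1, 14.3 and 23.5 CPM with vehicle. All PI3K inhibitor values again exceeded all vehicle values (log2 difference 1.62 ± 0.40, adjusted p = 0.0407, edgeR). Mrps18c, a small-subunit protein of the bacterial S18 family, was at 69.8, 139 and 147 CPM with the PI3K inhibitor, against 47.6, 27.9 and 50.9 CPM with vehicle (log2 difference 1.49 ± 0.45, adjusted p = 0.049, edgeR). Mrpl53, which shares 14 exon bases with Ccdc142, was at 31.3, 54.6 and 74.6 CPM with the PI3K inhibitor, against 20.1, 13.2 and 23.98 CPM with vehicle (log2 difference 1.49). Replicate 7 was the lowest PI3K inhibitor specimen and vehicle replicate 2 the lowest vehicle specimen for each of these 4 genes. Mrpl47 and Mrpl22, whose proteins lie near the exit of the nascent-chain tunnel, averaged 34.8 ± 17.9 and 60.5 ± 26.5 CPM with the PI3K inhibitor, against 12.9 ± 3.15 and 22.5 ± 6.66 CPM with vehicle (SD, n = 3 each). The smallest adjusted p of the set, 0.0394 by edgeR, was that of Mrps24, a small-subunit counterpart of bacterial S3, at 59.6, 94.5 and 124 CPM with the PI3K inhibitor against 36.9, 26.8 and 43.1 CPM with vehicle. The 28 adjusted p-values lay between 0.0394 and 0.0494, all close to the threshold.

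**Figure D3:**
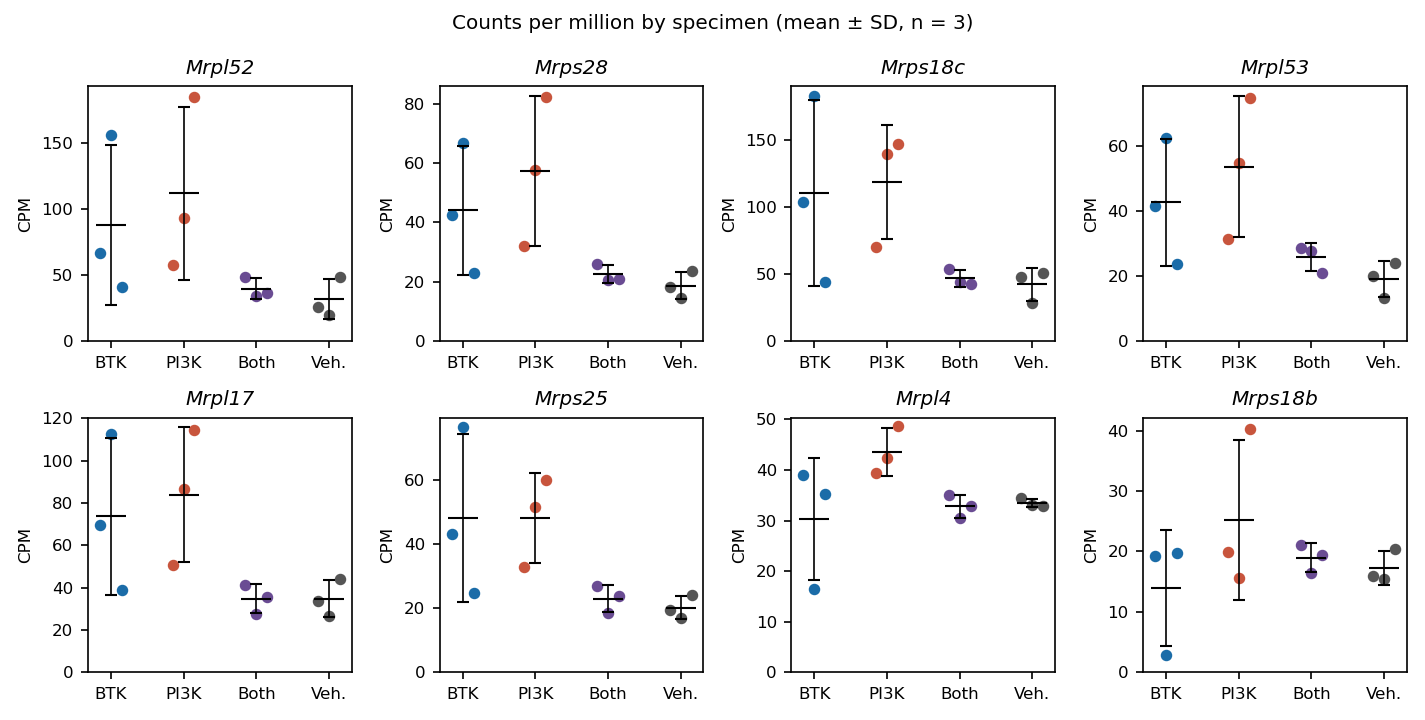
CPM of 8 mitoribosomal protein genes in each specimen, by group (BTK, BTK inhibitor; PI3K, PI3K inhibitor; Both, combination; Veh., vehicle); horizontal bars are the mean and vertical bars the SD (n = 3). PI3K inhibitor specimens of Mrpl52 lie at 57.7, 93.7 and 185 CPM and vehicle specimens at 25.98, 19.9 and 48.9 CPM, while the vehicle specimens of Mrpl4 lie close together at 34.4, 33.1 and 32.96 CPM and its BTK inhibitor replicate 5 at 16.6 CPM.

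Genes of both subunits were among the 28. In the large subunit 17 of 50 were called higher (median log2 difference 1.14) and in the small subunit 11 of 26 (median 1.12). Genes with a bacterial counterpart (17 of 46 called, median 1.17) and mitochondria-specific genes (11 of 30 called, median 1.11) were likewise close. By length, called genes were 15 of 31 under 1000 bases, 10 of 34 of 1000 to 2000 bases and 3 of 12 of 2000 bases or longer. The median log2 difference was 1.28 for the 31 genes shorter than 1000 bases, 0.89 for the 34 genes of 1000 to 2000 bases and 1.14 for the 12 genes of 2000 bases or longer. Other genes in these classes had medians of 1.09, 0.55 and -0.29.

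**Figure D4:**
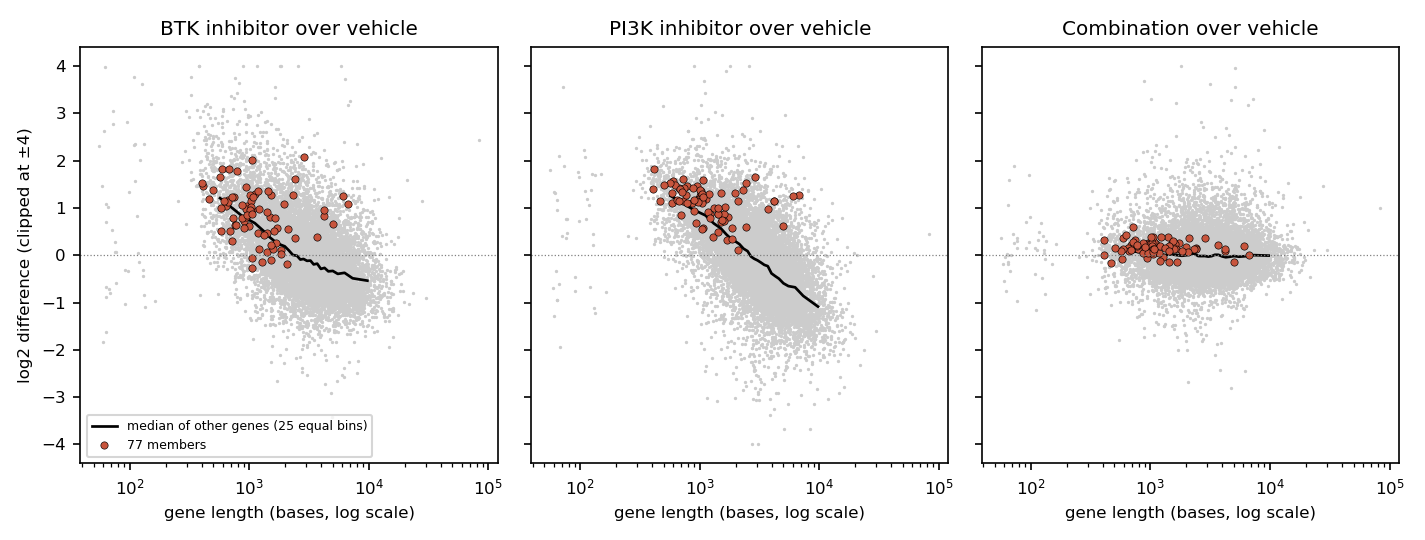
Log2 difference against vehicle for the BTK inhibitor, the PI3K inhibitor and the combination (clipped at ±4) by gene length (log axis, bases), for the 77 genes (red) and all other tested genes (grey), with the median of other genes in 25 bins of equal size (line). The line falls with length for both single inhibitors and is flat for the combination, and with the PI3K inhibitor the 12 red points of 2000 bases or longer have a median of 1.14 where other genes have -0.29.

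With the length offset, 0 of 12742 genes and 0 of the 77 were called between PI3K inhibitor and vehicle. At an unadjusted p under 0.05, edgeR with the offset gave 17 of the 77 higher and 0 lower, or 22.1%, against 11% of all tested genes and 9.35% of genes of like length. The median log2 difference of the 77 was then 0.34, with 69 positive, against 0.04 for genes of like length. Without PI3K inhibitor replicate 9 it was 0.16, with 60 positive. Leaving out BTK inhibitor replicate 5 under this offset, 17 of the 77 (22.1%) were called higher, against 9.6% of all tested genes and 8.46% of genes of like length. Annotated length is mostly untranslated sequence in several of these genes, so an offset on the longest coding length was added after the data were seen. It gave a median of 0.54 with 75 positive, against 0.04 for the 3696 other genes of like coding length, and again 0 calls. At an unadjusted p under 0.05 by edgeR it gave 40 of the 77 higher, or 51.9%. The shares were 13.2% of all tested genes and 19.6% of genes of like annotated length (4319 in this fit).

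The 3 highest differences with the length offset were those of Mrpl17, Mrps25 and Mrpl11, whose annotated lengths are 6712, 6065 and 2882 bases. Mrpl17, a large-subunit protein of a bacterial family, was at 50.7, 86.8 and 114 CPM in PI3K inhibitor specimens, against 33.5, 26.7 and 44.2 CPM in vehicle specimens. The groups did not overlap. Its log2 difference was 1.27 ± 0.39 without an offset (adjusted p = 0.0514, edgeR), 2.00 with the offset on annotated length and 0.60 with that on coding length. Mrps25, a small-subunit protein, was at 32.8, 51.6 and 60.04 CPM with the PI3K inhibitor, against 19.4, 16.99 and 24.1 CPM with vehicle. Its difference was 1.25 without an offset, 1.91 with the offset on annotated length and 0.57 with that on coding length. Mrpl11, at the base of the stalk that recruits translation factors, gave 1.65, 1.72 and 1.04 in the same order. At the other end lay Mrpl4, which lines the exit tunnel, at 39.5, 42.3 and 48.8 CPM with the PI3K inhibitor against 34.4, 33.1 and 32.96 CPM with vehicle. Its log2 difference was 0.38 without an offset and -0.30 with the offset on annotated length, neither past the threshold. Mrps18b and Mrps15 likewise had log2 differences of 0.55 and 0.68 without an offset and -0.28 and -0.25 on the log2 scale with that offset.

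**Figure D5:**
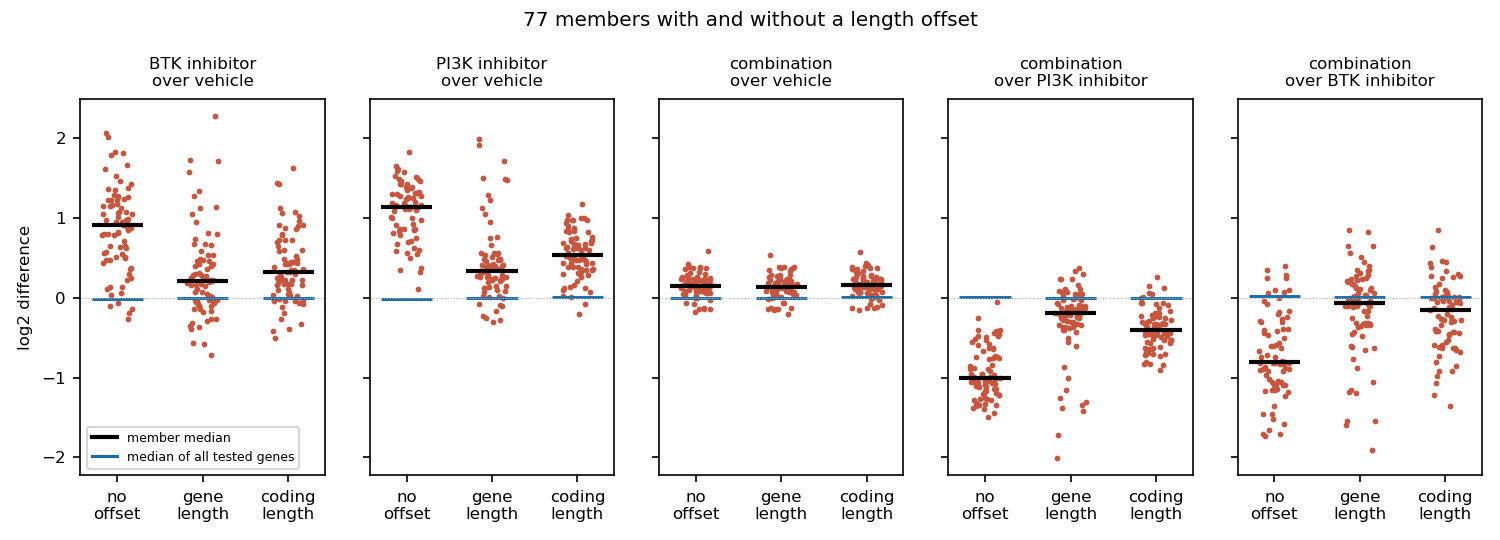
Log2 difference of each of the 77 genes (points) in the 5 comparisons, with no offset, with the offset on annotated gene length and with that on coding length; black bars are the median of the 77 and blue bars the median of all tested genes. Between PI3K inhibitor and vehicle the black bar lies at 1.14, 0.34 and 0.54 in these 3 fits, and between combination and vehicle at 0.15, 0.14 and 0.16.

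Mrps18a, Mrps18b and Mrps18c are paralogs that occupy separate places in the same mitoribosome, the first in the large and the others in the small subunit. With the PI3K inhibitor they averaged 59.96 ± 22.1, 25.2 ± 13.2 and 119 ± 42.5 CPM, against 28.1 ± 7.94, 17.2 ± 2.77 and 42.1 ± 12.4 CPM with vehicle (SD, n = 3 each). Of the 3, Mrps18c rose, while Mrps18a (log2 difference 1.09, adjusted p = 0.0555, edgeR) and Mrps18b (0.55, adjusted p = 0.455) did not pass. Whether the paralogs differed in response was not tested. Mrps18b was at 19.2, 2.83 and 19.8 CPM in BTK inhibitor specimens, in the order of replicates 4 to 6, with replicate 5 the lowest of all 12 specimens.

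With the BTK inhibitor, 0 of the 77 genes passed edgeR's test against vehicle, as did 0 of all 12742 genes. At an unadjusted p under 0.05, 51 of the 77 were higher and 0 lower, or 66.2%, against 15.8% of all tested genes and 27.8% of genes of like length. DESeq2 called 26 higher, against 7.32% of genes it tested and 13% of those of like length, and limma voom 40, against 11.1% and 21.9%. The median log2 difference was 0.92, with 72 positive, against 0.36 for genes of like length. All 3 BTK inhibitor specimens were above all vehicle specimens in 26 genes, or 33.8%, against 8.92% of all tested genes and 15.4% of genes of like length. BTK inhibitor replicates 5 and 6 are the libraries named above as standing apart or dated otherwise. Without replicate 5 the median was 0.61 with 76 positive and 0 calls, against 0.00772% of all tested genes called higher. Without replicate 6 it was 1.14 with 70 positive and 50 of the 77 called, or 64.9%, against 16.1% of all tested genes and 28.8% of genes of like length. Under the length offset the median was 0.21, with 51 positive and 0 calls. The offset fit gave 18 higher at an unadjusted p under 0.05, or 23.4%, against 12.2% both of all tested genes and of genes of like length. The offset on coding length gave a median of 0.33.

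Mrps12, the counterpart of the bacterial decoding-site protein S12, had the smallest p in this comparison. It was at 58.6, 158 and 29.4 CPM with the BTK inhibitor, against 25.4, 16.9 and 27.04 CPM with vehicle. The groups did not overlap, but replicate 6 exceeded the highest vehicle value only narrowly (log2 difference 1.82 ± 0.50, adjusted p = 0.136, edgeR). Mrpl28, a large-subunit protein, was at 136, 426 and 59.96 CPM with the BTK inhibitor, against 50.2, 39.98 and 63.5 CPM with vehicle. Here replicate 6 lay below the highest vehicle specimen (log2 difference 2.01, adjusted p = 0.136, edgeR). Mrpl14, which faces the small subunit, was at 87.4, 203 and 39.2 CPM with the BTK inhibitor, against 37.03, 18.7 and 36.7 CPM with vehicle. In each of these genes replicate 5 was the highest specimen of the group. Mrpl41 and Mrpl11 were at 84.9, 187 and 37.6 CPM and 74.98, 244 and 33.7 CPM with the BTK inhibitor, against 39.3, 18.1 and 43.2 CPM and 29.3, 18.1 and 36.3 CPM with vehicle. Mrps25 was at 43.2, 76.5 and 24.9 CPM with the BTK inhibitor, against 19.4, 16.99 and 24.1 CPM with vehicle. These 3 genes had the largest differences with the length offset, at 2.28, 1.73 and 1.72 for Mrpl11, Mrps25 and Mrpl41. For other genes replicate 5 was the lowest of the 12: Mrpl4 was at 38.9, 16.6 and 35.3 CPM and Mrpl40 at 35.2, 12.3 and 31.5 CPM with the BTK inhibitor, against 34.4, 33.1 and 32.96 CPM and 30.2, 22.01 and 31.1 CPM with vehicle. The differences of Mrpl4, Mrpl40 and Mrps18b, at -0.13, -0.06 and -0.27, changed sign without replicate 5.

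With both inhibitors together the median of the 77 genes was 0.15 above vehicle on the log2 scale. By edgeR 0 of the 77 passed against vehicle, as did 0 of 12742 genes, and at an unadjusted p under 0.05 there were 0 of the 77 in either direction, against 3.41% of all tested genes higher and 1.51% lower. DESeq2 also called 0 of the 77, against 0.11% of genes higher and 0.0629% lower, and limma voom 0, against 5.99% higher and 3.75% lower. The median had 69 of 77 positive differences behind it, against a median of 0.02 for genes of like length, and lay between 0.01 and 0.30 with any 1 specimen left out. The slopes of expression on length overlapped between these groups, and the length offset left the median at 0.14. Combination specimens were above all vehicle specimens in 2 genes, Mrps36 and Mrps11, against 9.32% of all tested genes. Mrps36 was at 21.1, 17.5 and 16.4 CPM with the combination, against 11.2, 9.47 and 15.8 CPM with vehicle (log2 difference 0.59 ± 0.41, adjusted p = 0.9997, edgeR). Mrps24 averaged 46.7 ± 6.80 CPM with the combination and 35.6 ± 8.22 CPM with vehicle, and Mrpl38, a mitochondria-specific large-subunit protein, 25.3 ± 6.39 and 19.3 ± 4.57 CPM (SD, n = 3 each). Under the length offset the highest were Mrps36 at 0.54, Mrpl50 at 0.39 and Mrpl53 at 0.39, and the lowest Mrpl33 at -0.20, Mrpl43 at -0.15 and Mrpl44 at -0.14 on the log2 scale. The 3 comparisons against vehicle share the vehicle specimens.

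Set against the PI3K inhibitor alone, the combination had lower values for all 77 genes, with a median log2 difference of -1.002, against -0.50 for genes of like length. Combination specimens were below all PI3K inhibitor specimens in 67 of the 77 genes, or 87%, against 24.6% of all tested genes and 47.7% of genes of like length. By edgeR 0 of the 77 passed, as did 0 of 12742 genes. At an unadjusted p under 0.05, 62 were lower, or 80.5%, against 14.7% of all tested genes and 30.3% of genes of like length. DESeq2 called 26 lower, against 4.5% of the genes it tested and 9.32% of those of like length, and limma voom 67, against 21% and 42.4%. Without BTK inhibitor replicate 5 edgeR called 55 lower, against 9.38% of all tested genes and 18.9% of genes of like length, and without replicate 6 it called 45, against 6.31% and 12.3%. The smallest p-values were those of Mrpl23, near the tunnel exit, and of the mitochondria-specific small-subunit genes Mrps26 and Mrps34. Mrpl23 was at 15.9, 10.1 and 12.7 CPM with the combination, against 19.9, 30.1 and 38.4 CPM with the PI3K inhibitor (log2 difference -1.19 ± 0.31, adjusted p = 0.125, edgeR). Mrps26 averaged 26.8 ± 3.08 CPM with the combination, against 56.5 ± 17.3 CPM with the PI3K inhibitor, and Mrps34 27.1 ± 4.15 against 53.7 ± 19.1 CPM (SD, n = 3 each). The length offset gave a median of -0.19, with 61 of 77 negative and 11 lower at an unadjusted p under 0.05, or 14.3%, against 4.91% of all tested genes and 1.92% of genes of like length. Under this offset and without PI3K inhibitor replicate 9 the median was -0.026.

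Against the BTK inhibitor alone, the median log2 difference of the combination was -0.81, against -0.34 for genes of like length. By edgeR 0 of the 77 and 0 of 12742 genes passed. At an unadjusted p under 0.05, 40 were lower, or 51.9%, against 13.9% of all tested genes and 25.4% of genes of like length. DESeq2 called 7 lower, or 9.09%, against 4.48% of the genes it tested and 8.47% of those of like length. Limma voom called 50, or 64.9%, against 18.7% and 36.4%. Without BTK inhibitor replicate 6 edgeR called 44 lower, or 57.1%, against 14.7% of all tested genes and 26.9% of genes of like length. Combination specimens were below all BTK inhibitor specimens in 5 genes (Mrpl10, Mrpl27, Mrpl9, Mrps12 and Mrps26), or 6.49%, against 6.73% of all tested genes and 11% of genes of like length. Mrps12 averaged 25.04 ± 2.89 CPM with the combination, against 82.1 ± 67.6 CPM with the BTK inhibitor. Mrpl43 averaged 40.3 ± 5.81 against 86.5 ± 44.3 CPM, and Mrps21 47.7 ± 9.94 against 137 ± 97.2 CPM (SD, n = 3 each). The length offset gave a median of -0.059, with 43 of 77 negative. It gave 13 lower at an unadjusted p under 0.05, or 16.9%, against 10.8% of all tested genes and 10.2% of genes of like length. The offset on coding length gave 11 lower, or 14.3%, against 10.7% of all tested genes and 15% of genes of like annotated length.

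The interaction of the inhibitors asks whether the combination differed from the sum of its parts on the log2 scale: the combination, minus the PI3K inhibitor, minus the BTK inhibitor, plus vehicle. It was added after the data were seen. By edgeR 59 of the 77 genes had a negative interaction past the threshold and 0 a positive one, against 15.6% of all tested genes negative and 31.1% of genes of like length. The median was -1.95, against -0.88 for genes of like length, and 76 of 77 were negative, with Mrps2 the exception. Mrpl51 had the smallest p, with an interaction of -2.40 ± 0.52 (SE, adjusted p = 0.0202, edgeR). DESeq2 called 64, against 20.5% of the genes it tested and 40.1% of those of like length, and limma voom 69, against 26% and 50.7%. Unadjusted, edgeR gave 65 negative at p under 0.05, against 23% of all tested genes and 44.3% of genes of like length. Under the length offset 0 of the 77 were called, against 0.00785% of all tested genes, with 25 negative at an unadjusted p under 0.05, or 32.5%, against 15.6% of all tested genes and 14.7% of genes of like length. The median was then -0.41. The offset on coding length gave a median of -0.67 with 0 called, against 0.00847% of all tested genes. By edgeR with this offset 37 were negative at an unadjusted p under 0.05, or 48.1%. The shares were 17.3% of all tested genes and 26.2% of genes of like annotated length. Under the length offset and without BTK inhibitor replicate 5, 7 of the 77 were called, or 9.09%, against 1.44% of all tested genes and 0.397% of genes of like length. Without vehicle replicate 2, PI3K inhibitor replicates 8 or 9 or combination replicates 11 or 12, edgeR called 0 of the 77. In those fits it called 0.00772%, 0.00773%, 0.00774%, 0 and 0 of all tested genes negative, in that order.

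Mitoribosomal proteins with other names were a list of 5. Of these, Dap3, Gadd45gip1 and Chchd1 rose with the PI3K inhibitor, and Aurkaip1 and Ptcd3 did not pass. In this comparison edgeR called 4.84% of all tested genes higher, and 0 when any 1 vehicle or combination specimen was left out. Dap3, a GTP-binding protein of the small subunit, was at 100.1, 134 and 176 CPM with the PI3K inhibitor, against 53.3, 59.3 and 69.9 CPM with vehicle. The groups did not overlap (log2 difference 1.17 ± 0.29, adjusted p = 0.0407, edgeR), and with an annotated length of 4628 bases it had a difference of 1.63 under the length offset. Gadd45gip1 and Chchd1, proteins of the large and the small subunit, averaged 82.2 ± 37.1 and 105 ± 48.7 CPM with the PI3K inhibitor, against 29.7 ± 6.07 and 36.7 ± 14.4 CPM with vehicle (SD, n = 3 each). Aurkaip1 averaged 165 ± 52.4 CPM with the PI3K inhibitor, against 74.6 ± 13.4 CPM with vehicle, and Ptcd3 69.4 ± 27.5 against 48.5 ± 13.3 CPM (SD, n = 3 each). For the list of 5, the median log2 difference between PI3K inhibitor and vehicle was 1.165 without an offset. It was 0.51 with the length offset and 0.81 with that on coding length, so Dap3 moved against the list median under the length offset. Genes that act around the mitoribosome were on 3 further lists. Of 19 assembly and rRNA-modification genes, 2 rose with the PI3K inhibitor: the rRNA dimethyltransferase Tfb1m (log2 difference 1.18) and the rRNA methyltransferase Mrm1 (1.10). The list had a median of 0.62 with 18 of 19 positive. Of 17 mitochondrial aminoacyl-tRNA synthetase genes, Cars2 alone rose (log2 difference 0.89), a share near that of all tested genes, with a list median of 0.38. Of 13 initiation, elongation and release factor genes, 0 passed by edgeR, with a median of 0.32 and 12 of 13 positive. In the other 4 comparisons 0 members of these lists passed, as did 0 of all 12742 genes. The lists differ in gene length, with medians of 1871, 3349 and 2534 bases, against 1053 for the 77. Under the length offset the medians of these lists with the PI3K inhibitor were 0.23, 0.42 and 0.36, against 0.34 for the 77. The offset on coding length gave 0.59, 0.52 and 0.27, against 0.54 for the 77.

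Markers of cell types also differed between groups. Of 10 tested erythroid markers 3 rose with the PI3K inhibitor, against 4.84% of all tested genes, with 9 positive and a median log2 difference of 1.11. The list summed to 1844 to 3657 CPM, against 580.4 to 2391 CPM with vehicle. It summed to 2998 to 3342 CPM with the combination (median log2 difference against vehicle 1.13, 10 of 10 positive). With the BTK inhibitor it summed to 1240 to 2459 CPM (median 0.42, 6 of 10 positive). For combination against PI3K inhibitor the erythroid median was -0.027 (4 of 10 positive), and for combination against BTK inhibitor 0.78 (8 of 10 positive). The medians of the 9 neutrophil markers in these comparisons were -0.45 (2 positive) and -0.65 (0 positive). Of 9 neutrophil markers Cxcr2 fell with the PI3K inhibitor, against 5.82% of all tested genes. The list had a median log2 difference of -0.20 with 4 of 9 positive. Of 7 monocyte markers Cx3cr1 and Ace fell, against the same share of all tested genes, with a median of -0.80 and 1 of 7 positive. The neutrophil list summed to 99830 to 197600 CPM with the PI3K inhibitor, against 83420 to 109600 CPM with vehicle, most of it from S100a9, S100a8, Camp and Ngp. Of these, Ngp was at 14337, 19147 and 10195 CPM with the PI3K inhibitor, against 18050.0, 21311 and 14876 CPM with vehicle, and lower on average, whereas the other 3 were higher on average, none past the threshold. The monocyte list summed to 1250 to 1799 CPM with the PI3K inhibitor, against 1564 to 2020 CPM with vehicle. In the lists for granulocyte-monocyte precursors, macrophages, B lineage, T and NK cells, megakaryocytes and stroma 0 members passed in any of the 5 comparisons. The B lineage list still had a median log2 difference of 1.19 with the BTK inhibitor against vehicle, with 8 of 8 positive. Its sums were 159.1 to 451.5 CPM with the BTK inhibitor and 106 to 217.3 CPM with vehicle. With the PI3K inhibitor its median was 0.39, with 6 of 8 positive. In the 4 comparisons other than PI3K inhibitor against vehicle, 0 of all 12742 genes passed. The part of these markers in the differences of the mitoribosomal protein genes was not tested.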

How the data were processed

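RNA was taken from bone marrow mononuclear cells with a micro column kit, and libraries were made by low-input SMART-Seq v4 amplification and Nextera XT tagmentation, which does not keep strand, per the labels' protocols. The deposited table holds raw counts per gene, which the submitters' processing notes tie to STAR, featureCounts and mm10; the sources used here do not give versions. The 24 deposited samples are pairs from 12 specimens, and the table has 1 count column for each specimen. Whether a column holds 1 sample of its pair, or both, is not shown. Of the count columns, 0 were left unused. Counts of neighbouring genes that overlap cannot be separated without strand.

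Genes were kept by filterByExpr (smallest count 10, smallest total 15), scaled by TMM and fitted over all 4 groups with edgeR 4.0.16 (quasi-likelihood, robust) in R 4.3.3, with p-values adjusted by Benjamini and Hochberg's method over every tested gene (threshold 0.05). DESeq2 1.42.0 and limma 3.58.1 (voom with quality weights) were alternatives, as were other scalings and filters, only the groups compared, and each specimen left out. The length offset was a natural spline (5 degrees of freedom) of log2 gene length per library against the mean library. CPM values use TMM library sizes. The scripts were tested on simulated data. Within groups, counts of any pair of specimens differed beyond sampling noise, with a chi-square of 21.7 to 670.5 for each degree of freedom. Genes were named by rule: up to 6 called in each direction by fold change, otherwise the 3 smallest p-values; the 3 highest and 3 lowest against vehicle with the offset; the 5 highest and 3 lowest levels; the Mrps18 paralogs; and the overlapping genes. The genes, lists and tests were chosen with earlier results of these data known. The result of 1 cell type marker is not reported here.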

Additional observations from a re-analysis of the deposited data

Results flagged for a closer look

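The difference made by the PI3K inhibitor was tested with against without the BTK inhibitor: 59 of the 77 passed edgeR's test of the interaction, all of them negative, against 15.6% of all tested genes and 31.1% of genes of like length. DESeq2 gave 64 and limma voom 69. With the length offset 0 of the 77 passed, and leaving out 1 specimen brought the count to 0 in 5 cases (replicate 2 of vehicle, 8 and 9 of the PI3K inhibitor, and 11 and 12 of the combination). The slope of expression on gene length moved with the same groups, and its part in the interaction was not tested beyond the offsets.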

How the results depend on the processing

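No paired analysis was possible because the groups share no replicate numbers. With 1 specimen left out at a time, the count called and the median log2 difference of the 77 genes lay between 0 and 50 and between 0.61 and 1.14 for BTK inhibitor against vehicle, 0 and 66 and 0.87 and 1.36 for PI3K inhibitor against vehicle, 0 and 0 and 0.01 and 0.30 for combination against vehicle, 0 and 55 and -1.20 and -0.72 for combination against PI3K inhibitor, 0 and 44 and -1.08 and -0.41 for combination against BTK inhibitor, and 0 and 64 and -2.16 and -1.60 for the interaction. For combination against vehicle no alternative called any of the 77, and the median moved by less than the spread between specimens. The coding length offset, the offset without PI3K inhibitor replicate 9, the Y-linked covariate and the interaction were chosen after seeing the data.

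For BTK inhibitor against vehicle, DESeq2 called 26 and limma voom 40; the median was 0.40 with library size only, 0.21 with the length offset, 0.16 with that offset when BTK inhibitor replicate 5 was left out, 0.33 with the coding length offset and 0.23 with the offset and without PI3K inhibitor replicate 9. For PI3K inhibitor against vehicle, DESeq2 called 59, limma voom 66 and edgeR on only the groups compared 66; library size only, both offsets, the offset without PI3K inhibitor replicate 9 and the Y-linked covariate gave 0, and the offset without BTK inhibitor replicate 5 gave 17. Its median was 0.34 with the length offset, 0.35 with it and without BTK inhibitor replicate 5, 0.54 with the coding length offset and 0.16 with the length offset and without PI3K inhibitor replicate 9. For combination against PI3K inhibitor, DESeq2 called 26, limma voom 67 and only the groups compared 59; the median was -0.19 with the length offset, with and without BTK inhibitor replicate 5, -0.40 with the coding length offset and -0.026 with the length offset and without PI3K inhibitor replicate 9. For combination against BTK inhibitor, DESeq2 called 7 and limma voom 50; the median was -0.18 with library size only, -0.059 with the length offset, 0.0045 with it and without BTK inhibitor replicate 5, which turns its sign, -0.15 with the coding length offset and -0.065 with the length offset and without PI3K inhibitor replicate 9. For the interaction, library size only called 15 with a median of -1.02, the length offset 0 with -0.41, the offset without BTK inhibitor replicate 5 7 with -0.33, the coding length offset 0 with -0.67 and the offset without PI3K inhibitor replicate 9 0 with -0.24. The cause was not tested. Library size only also shifted the median of all tested genes, to -0.35 for BTK inhibitor against vehicle, 0.48 for combination against BTK inhibitor and 0.76 for the interaction.

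Of the values of named genes, 731 kept their direction and side of the threshold, 100 no longer passed, 60 newly passed and 19 changed sign, none of these 19 past the threshold before. For BTK inhibitor against vehicle, limma voom and leaving out BTK inhibitor replicate 5 gave 0.025 and 0.18 for Mrps18b (lowest -0.57 with 1 specimen left out), 0.14 and 0.15 for Mrpl4, and 0.16 and 0.26 for Mrpl40, which was also at 0.0013 without vehicle replicate 1 and 0.024 without vehicle replicate 3. For PI3K inhibitor against vehicle, the length offset, that without BTK inhibitor replicate 5 and that without PI3K inhibitor replicate 9 gave -0.30, -0.28 and -0.32 for Mrpl4, -0.28, -0.26 and -0.64 for Mrps18b, and -0.25, -0.23 and -0.18 for Mrps15. Mrpl33 was at 0.014 for combination against vehicle without vehicle replicate 1 and at -0.46 without vehicle replicate 2, and Mrps34 at 0.10 for combination against PI3K inhibitor with the offset and without PI3K inhibitor replicate 9. Each group had 3 specimens, and the spread between them exceeded sampling noise. The part of depth in these comparisons was not tested.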
